A study of Homo sapiens with 6 samples.

Results

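The genes described here are 6 metallothionein genes (MT1E, MT1F, MT1G, MT1M, MT1X and MT2A), the metal-regulatory transcription factor gene MTF1 and the zinc exporter gene SLC30A1. They were chosen by symbol and are 8 of the 19470 genes in the count table. RNA was sequenced from HCCC9810 cells, 1 established human cholangiocarcinoma (CCA) line labelled as wild type, after 24 h with isolinderalactone (ILL) at 20 μM or with DMSO vehicle as control. Each group had 3 libraries, and the labels do not say whether these came from separate cultures, so p-values measure the spread between libraries, which may be technical. The values are read counts per gene and FPKM, which scales the count by gene length and library size, both as the authors deposited them. The comparison asks how the RNA level of each gene differed between ILL-treated and control cells.

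Metallothioneins are small, cysteine-rich proteins that bind zinc, copper and cadmium through their thiol groups, and they buffer free zinc and react with oxidants. MTF1 is a zinc finger factor that senses zinc and binds metal response elements in the promoters of metallothionein genes and of SLC30A1, which encodes the plasma membrane zinc exporter ZnT1. When zinc rises in a cell, this factor is known to raise metallothionein and SLC30A1 transcription.

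The metal response elements are shown first, because they are the sites through which MTF1 is known to act on these genes. RefSeq promoter windows on GRCh38.p14 were found for 4 of the 8 genes, and the 250 bases before the transcription start were searched on both strands for the core letters TGCACNC or TGCGCNC, where N is any base. In the sequences below, written 5′ to 3′ along the gene's strand, capitals mark each match, and a match on the opposite strand reads as its reverse complement.
MT2A, chr16:56608334-56608583, plus strand: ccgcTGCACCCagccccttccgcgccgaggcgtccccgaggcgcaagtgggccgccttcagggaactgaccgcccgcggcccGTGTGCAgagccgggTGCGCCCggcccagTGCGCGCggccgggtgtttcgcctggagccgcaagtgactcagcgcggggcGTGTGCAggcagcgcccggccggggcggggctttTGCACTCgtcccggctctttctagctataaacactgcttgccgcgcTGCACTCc
MT1X, chr16:56682220-56682469, plus strand: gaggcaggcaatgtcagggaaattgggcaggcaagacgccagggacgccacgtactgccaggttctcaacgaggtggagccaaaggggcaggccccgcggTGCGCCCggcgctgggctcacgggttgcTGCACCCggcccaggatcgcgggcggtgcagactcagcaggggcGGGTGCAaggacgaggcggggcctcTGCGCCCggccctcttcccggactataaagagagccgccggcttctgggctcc
SLC30A1, chr1:211579162-211579411, minus strand: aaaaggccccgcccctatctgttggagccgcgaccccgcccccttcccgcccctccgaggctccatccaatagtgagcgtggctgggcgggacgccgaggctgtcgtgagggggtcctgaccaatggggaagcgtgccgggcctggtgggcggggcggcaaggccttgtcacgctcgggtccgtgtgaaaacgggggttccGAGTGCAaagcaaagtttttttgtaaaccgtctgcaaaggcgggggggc
The MT2A window held 7 matches and the MT1X window 4, while the SLC30A1 window held 1 and the MTF1 window, which is not printed, held 0. The number of matches did not follow the RNA level across the family, since the window of MT1H, with 0 counts in all libraries, held 8, and those of MT1B and MT4, with at most 5 counts in a library, held 3 each. At least 1 match was present in 33.3% of 10482 windows of tested genes and in 24.8% of all 35116 windows. At least 4 matches were present in 0.487% of the windows of tested genes, and at least 7 in 0.0382%, or 4 windows with MT2A among them. The core of the antioxidant response element, the site bound by NRF2, was searched as TGACNNNGC on both strands. It matched once each in the MT2A, MT1X and SLC30A1 windows, overlapped no metal response element there, and was present in 12.1% of the windows of tested genes. The match in the MT2A window also holds the AP-1 letters TGACTCA. A match describes letters in the window and not a bound site, and the RefSeq starts differ from the gene boundaries of GENCODE release 29 given below. The SLC30A1 start of RefSeq lies upstream of the GENCODE start. Those of MT2A, MT1X and MTF1 lie inside the GENCODE gene, so the MT2A window is wholly within the annotated gene and the MT1X and MTF1 windows are partly within it. MT1E, MT1F, MT1G and MT1M were not among the windows.

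RNA of the 4 metallothionein genes MT2A, MT1X, MT1E and MT1F fell with ILL, SLC30A1 RNA fell too, and MTF1 RNA did not pass the test. After a filter on low counts, 13066 genes remained for edgeR's quasi-likelihood test, 6 of the 8 among them, and p-values were adjusted by the Benjamini-Hochberg method over all of these. At an adjusted p-value under 0.05, MT1E, MT1F, MT1X, MT2A and SLC30A1 fell, and 36.9% of all tested genes passed in that direction. With the study's further cutoff of a fold change above 2 or under 0.5, MT1E, MT1X and MT2A were differentially expressed genes (DEGs) lower with ILL, against 11.4% of all tested genes, and 0 of the 8 were DEGs higher with ILL, against 12.5%. The ILL libraries lay below all control libraries in 5 of the 6 tested genes, which was the case for 38% of all tested genes, and the groups were apart in either direction for 75.4%. The median log2 fold change of the 6 genes was -1.36, beside -0.0012 over all tested genes. In RNA from whole cultures, fewer cells with a transcript and less RNA per cell cannot be told apart.

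MT2A, the most abundant metallothionein of most human tissues, had 16029, 13523 and 13046 counts in control replicates 1 to 3 and 2787, 2579 and 2902 counts in ILL replicates 1 to 3. The lowest control library held several times the counts of the highest ILL library. In CPM, counts scaled to a common library size after TMM normalization, the level was 389 ± 22.2 CPM (SD, n = 3) in controls and 79.2 ± 4.05 CPM (SD, n = 3) with ILL. MT2A fell by 2.30 on the log2 scale (edgeR adjusted p = 6.8e-21, standard error or SE 0.06), a 4.91-fold lower level. Per gene length, MT2A was at 993 ± 61.2 FPKM (SD, n = 3) in controls, rank 65 of all genes in the table, and at 193 ± 10.5 FPKM (SD, n = 3) with ILL, rank 338. Its gene lies on chromosome 16 of GRCh38 from 56608199 to 56609497 in GENCODE release 29.

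MT1X, on chromosome 16 from 56682424 to 56684196, had 2336, 2260 and 2007 counts in controls and 454, 432 and 449 counts with ILL. The 3 ILL libraries were nearly equal, and all were far below the controls. MT1X fell by 2.24 on the log2 scale (edgeR adjusted p = 2.1e-18, SE 0.08), from 60.4 ± 3.79 CPM to 12.8 ± 0.213 CPM (SD, n = 3 each). Its level per gene length was 153 ± 10.02 FPKM in controls and 30.9 ± 0.700 FPKM with ILL (SD, n = 3 each), and its rank in the table moved from 466 to 2106.

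MT1E, on chromosome 16 from 56625475 to 56627112, is the second most abundant metallothionein of these cells. It had 6467, 5027 and 5138 counts in controls and 1577, 1274 and 1443 counts with ILL, so replicate 1 was the highest library in each group and the groups did not overlap. MT1E fell by 1.88 on the log2 scale (edgeR adjusted p = 2.0e-17, SE 0.07), from 390 ± 34.8 FPKM to 101 ± 10.5 FPKM (SD, n = 3 each). This was a 3.69-fold lower level.

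MT1F, on chromosome 16 from 56657694 to 56660698, fell by the least among the tested metallothioneins. Its counts were 325, 318 and 290 in controls and 166, 167 and 165 with ILL. The groups did not overlap, and the ILL libraries differed by at most a few counts. The log2 fold change was -0.84 (edgeR adjusted p = 1.7e-05, SE 0.15), a 1.79-fold lower level that was under the DEG cutoff. Per gene length its level was 20.6 ± 1.12 FPKM in controls and 10.96 ± 0.120 FPKM with ILL (SD, n = 3 each).

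MT1G and MT1M, which are known as inducible metallothioneins of liver and kidney, were at or near 0 in this line and could not be tested. MT1G had 1 count in control replicate 1 and 0 in the other 5 libraries. MT1M had 0 counts in all 6 libraries, which allows up to 0.0875 CPM in the shallowest library at 3 counts, a limit that covers counting error only.

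The table holds 6 further metallothionein genes. MT1A had 34, 43 and 20 counts in controls and 0, 0 and 1 with ILL. Over each group these were 97 and 1 counts, a ratio of 97.2 with a 95% counting interval from 17.0 to 3880 (exact binomial). This interval covers counting error only and not the spread between libraries. All ILL reads of this gene came from replicate 3. MT1A passed the filter on low counts only through its control libraries, so its difference is given as a description with no test. MT1B had 5, 4 and 0 counts in controls and 0, 0 and 1 with ILL, and was not tested. MT3, a metallothionein known from brain, had 1 count in controls and 4 with ILL, the latter in replicate 3. MT1H, MT1HL1 and MT4 had 0 counts in all libraries.

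**Figure D1:**
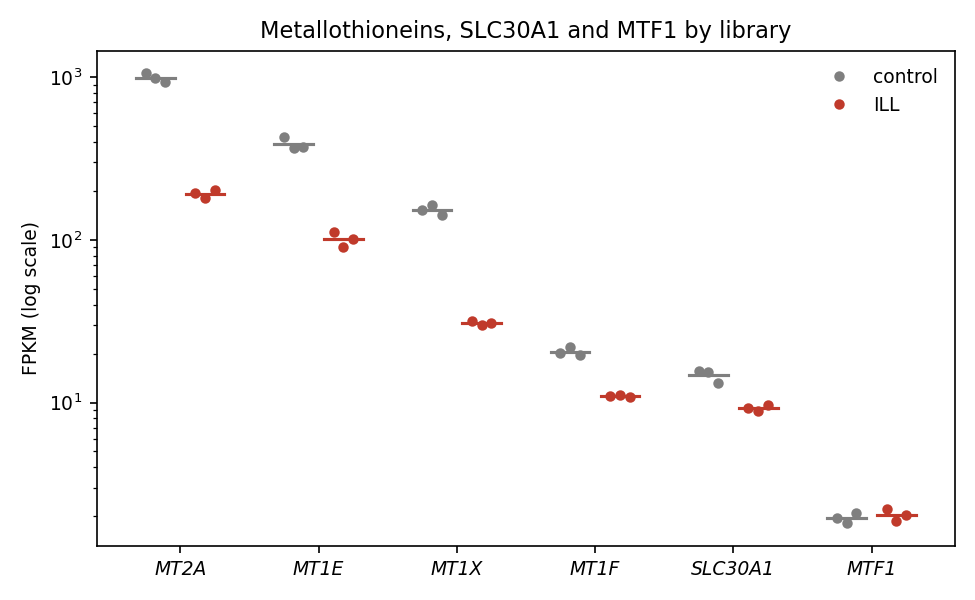
FPKM on a log scale (y axis) of the 6 tested genes in each library, with control in grey, ILL in red, points for libraries and lines for group means of 3. The red points lie below all grey points for MT2A, MT1E, MT1X, MT1F and SLC30A1, while the ranges of red and grey points overlap for MTF1.

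The order of levels per gene length was the same in both groups, with MT2A highest, followed by MT1E, MT1X, MT1F, SLC30A1 and MTF1, and then MT1G and MT1M. In each library every one of the first 6 was above the next, so neighbours in this order did not overlap within a group. With ILL the narrowest gap was between MT1F, at 10.8 to 11.1 FPKM, and SLC30A1, at 8.81 to 9.59 FPKM.

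Summed over the 12 metallothionein genes of the table, counts were 25198, 21175 and 20501 in controls and 4984, 4452 and 4965 with ILL. The sum was 610 ± 35.3 CPM (SD, n = 3) in controls and 138 ± 7.41 CPM (SD, n = 3) with ILL, a 4.43-fold lower level, given as a description with no test. As a share of all counts this was 0.0625% ± 0.00389 in controls and 0.0135% ± 0.000793 with ILL (SD, n = 3 each). The sum does not depend on how reads were divided among these 12 genes. It does depend on whether reads shared among them were dropped, and on reads shared with copies outside the table. Of the 50-base stretches in annotated MT2A, MT1E and MT1F transcripts, 4.24%, 7.10% and 3.27% also occurred in transcripts of other genes of GENCODE release 29. For MT1X it was 43.6%, and 7.63% when only genes of the count table were considered, which were MT1A, MT1F, MT1G, MT1M and MT2A. For SLC30A1 it was 0%. These shares are over all protein-coding transcripts of a gene together. For MT2A, MT1E, MT1F and MT1X, 42 of 990, 78 of 1098, 24 of 733 and 337 of 773 distinct stretches were shared. Counts and FPKM implied lengths of only 401, 398, 425 and 404 bases, so the share within a transcript of that length may be higher. The read length and the treatment of reads with several matches are not given in the sources used here, so the division of reads between MT1X and its pseudogene MT1XP1, for example, is uncertain.

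**Figure D2:**
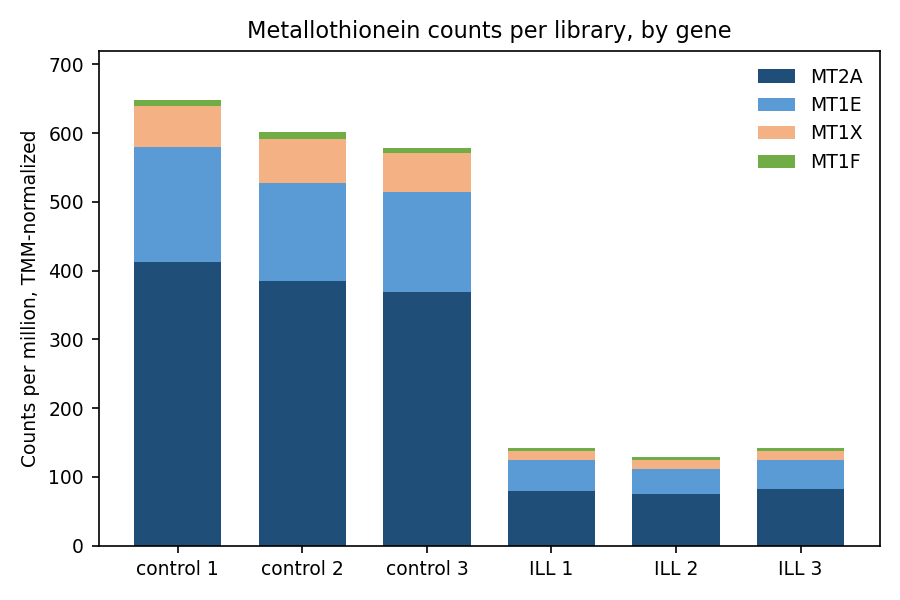
CPM after TMM normalization (y axis) of MT2A, MT1E, MT1X and MT1F stacked for each of the 6 libraries. The stacks of the control libraries are all taller than those of the ILL libraries, with MT2A the largest part of each, and the whole family summed to 579.7 to 648.9 CPM in controls and 129.3 to 142.4 CPM with ILL.

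The makeup of the metallothionein counts was compared next, as a description. MT2A made up 63.6% to 63.9% of metallothionein counts in control libraries and 55.9% to 58.5% with ILL, while the share of MT1E was 23.7% to 25.7% in controls and 28.6% to 31.6% with ILL. MT1F took 1.29% to 1.502% in controls and 3.32% to 3.75% with ILL, and the shares of these 3 genes did not overlap between groups. The share of MT1X, 9.27% to 10.7% in controls and 9.04% to 9.70% with ILL, overlapped. Ratios of counts within a library do not depend on scaling. MT2A counts per MT1F count were 49.3, 42.5 and 45.0 in controls and 16.8, 15.4 and 17.6 with ILL, a 2.75-fold lower ratio with ILL. MT2A counts per MT1E count were 2.48, 2.69 and 2.54 in controls and 1.77, 2.02 and 2.01 with ILL, a 1.33-fold lower ratio. MT2A counts per MT1X count were 6.86, 5.98 and 6.5 in controls and 6.14, 5.97 and 6.46 with ILL, and the groups overlapped (two-sided exact permutation p = 0.4). For MT1F and MT1E the exact permutation p was 0.1, which is the smallest that 3 libraries against 3 allow, and the Benjamini-Hochberg adjusted value over the 4 ratios tested was 0.133.

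SLC30A1, on chromosome 1 from 211571568 to 211578742, encodes the exporter that removes zinc across the plasma membrane. It had 3471, 3119 and 2678 counts in controls and 1953, 1843 and 2024 with ILL. Every ILL library was below every control library, with control replicate 3 the lowest of its group. SLC30A1 fell by 0.60 on the log2 scale (edgeR adjusted p = 1.8e-08, SE 0.07), from 84.6 ± 7.71 CPM to 55.7 ± 2.17 CPM (SD, n = 3 each), a 1.52-fold lower level under the DEG cutoff. MT2A counts per SLC30A1 count were 4.62, 4.34 and 4.87 in controls and 1.43, 1.40 and 1.43 with ILL (two-sided exact permutation p = 0.1, the smallest possible, adjusted to 0.133 over the same 4 ratios).

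MTF1, on chromosome 1 from 37809567 to 37859620, had 650, 551 and 640 counts in controls and 699, 588 and 647 with ILL, and the groups overlapped. Its log2 fold change was 0.14 (edgeR adjusted p = 0.214, 95% interval from -0.07 to 0.34, SE 0.10). Its level was 16.8 ± 1.21 CPM in controls and 18.5 ± 1.44 CPM with ILL (SD, n = 3 each), and per gene length it was the lowest of the tested genes, at 1.94 ± 0.133 and 2.04 ± 0.171 FPKM (SD, n = 3 each). The RNA level of a factor does not give its activity, which was not measured here.

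The metallothionein genes of chromosome 16 lie within 119.1 kb, and the genes around them were examined because position is shared by the family. This set was chosen after the metallothionein values were seen. Of 11 other genes of the table within 500 kb of the cluster, 9 were tested, of which 3 fell, 5 rose and 1 did not pass the test (36.9% of all tested genes fell and 36.2% rose), with log2 fold changes between -1.21 and 2.63 and a median of 0.23. The nearest tested gene on one side, BBS2, which encodes a subunit of the BBSome of cilia, rose by a log2 fold change of 0.89 (edgeR adjusted p = 2.1e-08, SE 0.10). On the other side NUP93, which encodes a nuclear pore protein, fell by 1.21 (edgeR adjusted p = 2.6e-13, SE 0.07). NUDT21, a pre-mRNA cleavage factor gene beyond BBS2, fell by 1.16 (edgeR adjusted p = 1.0e-14, SE 0.06). Beyond NUP93 were HERPUD1, an endoplasmic reticulum stress gene with a log2 fold change of 2.41, and NLRC5, an activator of MHC class I genes with 2.63. Of these genes, 0 of the tested neighbours fell by as much as MT2A, MT1X or MT1E.

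Of the 10 ZnT exporter genes, 7 were tested, of which 2 fell and 3 rose, shares near the 36.9% and 36.2% of all tested genes. Besides SLC30A1, SLC30A6, which forms a transporter of the secretory pathway with SLC30A5, fell by 0.36 on the log2 scale (edgeR adjusted p = 6.3e-05). SLC30A4, which moves zinc into vesicles, rose by a log2 fold change of 1.07, from 169, 206 and 132 counts to 325, 302 and 392 (edgeR adjusted p = 3.5e-06, SE 0.17), and by 0.43 with limma on unfiltered log2 of FPKM plus 1. SLC30A7 and SLC30A9 rose by 0.34 and 0.21. SLC30A2, a known MTF1 target of secretory epithelia, had 11, 3 and 11 counts in controls and 2, 0 and 1 with ILL, and was not tested.

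Of the 14 ZIP importer genes, 12 were tested, of which 4 fell and 6 rose, beside 36.9% and 36.2% of all tested genes. SLC39A8, which imports zinc, manganese and cadmium, fell by 1.78 on the log2 scale, from 2347, 2052 and 1937 counts to 603, 567 and 584 (edgeR adjusted p = 7.7e-17, SE 0.07). It was the list's 1 DEG lower with ILL, beside 11.4% of all tested genes. The list's 1 DEG higher with ILL, beside 12.5% of all tested genes, was SLC39A2. This gene, which is among the 6 that rose, had only 13, 11 and 6 counts in controls and 28, 16 and 30 with ILL. Its control libraries alone would not have passed the filter on low counts, so it was tested only because of the ILL libraries. SLC39A4, the importer needed for zinc uptake in the intestine, fell by 0.84 (edgeR adjusted p = 2.5e-11). SLC39A10, which MTF1 is known to repress, fell by 0.29. SLC39A11, SLC39A13 and SLC39A9, transporters of the Golgi and other inner membranes, rose by 0.83, 0.78 and 0.25. The median log2 fold change was 0.12 for the exporters and 0.03 for the importers, close to that of all tested genes.

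Copper, which metallothioneins also bind, has its own handling genes, and of 11 tested genes in that list 5 rose and 3 fell, beside 36.2% and 36.9% of all tested genes. ATOX1, the cytosolic copper chaperone, fell by 1.27 on the log2 scale (edgeR adjusted p = 2.4e-15, SE 0.06). The copper exporters it serves, ATP7B and ATP7A, rose by 1.64 and 0.75 (0.35 and 0.30 with limma on unfiltered log2 of FPKM plus 1, where low levels give smaller differences), and the importer SLC31A1 rose by 0.45. SCO1, a chaperone of cytochrome oxidase, fell by 0.59, and SOD1, the copper and zinc superoxide dismutase, by 0.38.

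Of genes described as MTF1 targets outside the metallothionein family, 7 in a list of 9 were tested. Of these 2 fell (SLC30A1 and SLC39A10), 2 rose and 3 did not pass the test, shares near those of all tested genes, of which 36.9% fell and 36.2% rose. MTF1 is known to raise SLC30A1 but to repress SLC39A10, so the list mixes both directions of action. GCLC encodes the catalytic subunit of glutamate-cysteine ligase, an enzyme of glutathione synthesis, and is also a target of NRF2. It rose by a log2 fold change of 1.45. NDRG1, a gene also raised by hypoxia and stress, rose by 4.11, from 1115, 907 and 1319 counts to 18959, 17671 and 18393. SELENOW and TXNRD2 had log2 fold changes of 0.08 and -0.12 and edgeR adjusted p-values of 0.179 and 0.147.

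Of 8 factors known to act at metallothionein promoters, 4 rose, 1 fell and 3 did not pass the test, beside 36.2% of all tested genes that rose and 36.9% that fell. NFE2L2, which encodes NRF2, rose by 0.88, STAT3 by 0.78 and SP1 by 0.35, while USF1 fell by 0.32. NR3C1, which encodes the glucocorticoid receptor, had a log2 fold change of -0.09 (edgeR adjusted p = 0.153). Of 6 tested glucocorticoid-responsive genes, 5 rose and 1 fell, beside the same shares of all tested genes. TSC22D3 rose by 2.25 and DUSP1 by 1.34, and FKBP5 fell by 1.96 (by 0.70 with limma on unfiltered log2 of FPKM plus 1). KLF9, which is among the 5, had 8, 2 and 0 counts in controls and 69, 88 and 73 with ILL, and it passed the filter on low counts only through the ILL libraries.

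Genes that are known to rise together with metallothioneins under metal or thiol stress rose here while metallothioneins fell. Of 8 tested genes in that list 7 rose, against 36.2% of all tested genes higher at the same threshold. Of the 8, 4 were DEGs higher with ILL, against 12.5% of all tested genes. SLC7A11, the cystine importer, rose by 2.94 on the log2 scale, HMOX1, the heme oxygenase, by 2.36 and TXNRD1, the cytosolic thioredoxin reductase, by 2.001. HMOX1 had 94, 85 and 79 counts in controls and 510, 429 and 324 with ILL, and the groups did not overlap (edgeR adjusted p = 9.9e-12, SE 0.17). DNAJB1, a heat shock gene, had a log2 fold change of -0.03 (edgeR adjusted p = 0.586).

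The genes whose profile over the 6 libraries was most like that of the summed metallothionein counts were LRR1, GEN1, NETO2, ADAMTS6 and KNTC1, out of 12035 genes with a mean of at least 1 CPM. Likeness was the root mean square distance between log2 CPM profiles centred on their means, which was 0.0549 to 0.0678 for these genes and mainly reflects the difference between the groups. LRR1, at 76.4 ± 3.77 CPM in controls and 16.4 ± 0.719 CPM with ILL (SD, n = 3 each), was the closest.

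Total counts ranged from 34282764 to 37758569 per library, and TMM factors from 0.970 to 1.03. The biliary epithelial markers KRT7, KRT19, KRT8, KRT18, EPCAM and SOX9 were all expressed, with group means between 44.7 and 3245 CPM. Of these markers 2 rose and 4 fell, beside 36.2% and 36.9% of all tested genes. The summed level of these 6 genes was 8805 to 9034 CPM in controls and 8524 to 9016 CPM with ILL. The 5 hepatocyte markers summed to 7.20 to 10.2 CPM in controls and 8.77 to 21.4 CPM with ILL, with CYP3A4 at 0 counts in every library and TTR at no more than 2. Of the 3 that were tested 1 rose, beside 36.2% of all tested genes. This was ALB, with 245, 160 and 240 counts in controls and 214, 240 and 541 with ILL. ALB did not pass without ILL replicate 3 (edgeR adjusted p = 0.495). The 8 stromal, endothelial and blood cell markers summed to 46.0 to 53.2 CPM in controls and 125.3 to 134.9 CPM with ILL. Of the 4 that were tested 3 rose, beside 36.2% of all tested genes. These were COL1A1, VWF and CD68, a lysosomal protein gene that made up most of the sum. VWF had only 2, 13 and 0 counts in controls and 25, 23 and 13 with ILL. It passed the filter on low counts only through the ILL libraries. CD3E and PTPRC had no more than 3 and 9 counts in a library. The part of these marker changes in the fall of the metallothioneins was not tested.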

How the data were processed

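RNA-seq was analysed in 6 HCCC9810 libraries, 3 with ILL and 3 with vehicle, grouped by their titles. In the table the authors deposited, each library has its own column of unnormalized read counts and another of FPKM values, by gene symbol. The submitters' processing notes name GRCh38 and DESeq2, and the aligner, counting program and annotation are not given in the sources used here. Libraries were made with Illumina mRNA kits. A short transcript such as a metallothionein gives few distinct fragments, and reads of similar copies can be divided or dropped by the counting.

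From the counts, genes were filtered with filterByExpr, which kept 13066 of 19470, normalized by TMM and tested with edgeR's quasi-likelihood test (edgeR 4.0.16, R 4.3.3), with Benjamini-Hochberg adjustment over all tested genes. This fit was tested on simulated data. Rose and fell mean an adjusted p-value under 0.05, and DEG adds a fold change above 2 or under 0.5. Standard errors were computed from the log2 fold change and the F statistic. FPKM served to compare genes per length. The genes, lists and tests were chosen with earlier results of these data known. Genes named besides the 8 and the other metallothioneins are at most 3 at each end of each list, whose mean reached 1 CPM and whose adjusted p was under 0.05, zinc transporters and MTF1 targets whose role a sentence turns on, and the 5 most alike profiles, while NR3C1, DNAJB1, SLC39A2, the neighbours and the marker genes were chosen after their values were seen. Positions come from GENCODE release 29, shared 50-base stretches from its transcripts on both strands, and promoters from RefSeq. Alternatives were DESeq2's size factors and Wald test (DESeq2 1.42.0), library size only, other filters, a replicate block, each library left out, the adjusted p alone, and limma 3.58.1 on log2 FPKM with pseudocounts of 1 or 0.1.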

Additional observations from a re-analysis of the deposited data

How the results depend on the processing

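Of the 6 tested genes, none changed sign or crossed the threshold in any alternative run for them. With the other metallothioneins and the genes taken from the ends of each list, 44 tested genes were followed, and 42 did not either. Other named genes, such as SLC39A2, VWF, NR3C1, DNAJB1, the neighbours and the most alike profiles, were not followed across the alternatives. MT2A ranged from -2.37 to -2.26, MT1X from -2.31 to -2.20, MT1E from -1.95 to -1.81, MT1F from -0.91 to -0.80 and SLC30A1 from -0.68 to -0.57. The adjusted p of MTF1 ranged from 0.109 to 0.618. The summed metallothionein log2 ratio was -2.15, from -2.18 to -2.10 without 1 library and -2.22 with the sum of FPKM.

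The same 3 genes, MT1E, MT1X and MT2A, were DEGs lower with ILL in all alternatives with the fold change cutoff, and without it there were 5, MT1F and SLC30A1 included. The median of the tested genes was -1.33 to -1.39 without 1 library. It was -1.84 without the filter on counts and -0.85 with limma on log2 of FPKM plus 1 without a filter, where MT1G entered as a seventh gene.

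DEGs among all genes numbered 3120, and 3083 to 3165 without 1 library. Limma on log2 of FPKM plus 1 gave 1591 with the FPKM filter and 1609 without, and no fold change cutoff gave 9547. What makes the limma counts smaller was not tested. With limma on log2 of FPKM plus 1, 668 were higher and 923 lower, and with FPKM plus 0.1 these were 909 and 1247, against 1635 and 1485. With library size as the only scaling they were 1488 and 1649. The median over all genes was then -0.0862, -0.101 and -0.0702 on the log2 scale. Same-numbered libraries of the groups did not deviate together (correlations of 0.00668, -0.020 and -0.0605 over 13066 genes). In neither group did any library correlate best with its own number. With the replicate number as a block there were 3111 DEGs, and 3 of the 8 genes were among those lower with ILL.

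ALB did not pass the test without ILL replicate 3 (log2 fold change 0.15, adjusted p = 0.495) or without control replicate 2 (0.54, 0.0772), nor with DESeq2's Wald test (adjusted p = 0.179) or limma on FPKM, and its adjusted p ranged from 1.6e-05 to 0.495. SLC30A7 did not pass with limma on unfiltered FPKM (adjusted p = 0.0554, and as low as 0.000307 in other alternatives). With limma on log2 of FPKM plus 1, which understates differences of low genes, HMOX1 was at 1.73 and COL1A1 at 0.33, and both still passed the test. Depth limits MT1A, MT1B, MT1G and MT3, whose values rest on few counts.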
